A study of Mus musculus with 17 samples.

Results

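The genes described here encode the alpha, beta and gamma subunits of heterotrimeric G proteins in the mouse cortex. They were chosen by symbol: a probe set was taken when the array annotation gave it 1 symbol and that symbol named a Gna, Gnb or Gng subunit. The rule found 31 genes with 78 probe sets, of 18193 genes and 45037 probe sets measured. The alpha subunits had 15 genes and 47 probe sets, the beta subunits 5 genes and 10 probe sets, and the gamma subunits 11 genes and 21 probe sets. Of the 34 genes that the rule could name, Gnat3 and Gng6 were not found, and the probe sets of Gng5 carry a second symbol as well, so these 3 were not analysed here. Several probe sets were present for 20 of the 31 genes.

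A heterotrimeric G protein couples a receptor of the membrane to enzymes and channels inside the cell. The activated receptor makes the alpha subunit exchange GDP for GTP, whereupon alpha and the tightly bound pair of beta and gamma part and act on their own effectors until alpha hydrolyzes its GTP. Alpha subunits of the Gs family stimulate adenylyl cyclase, those of the Gi, Go and Gz group inhibit it or act largely through their released beta and gamma, those of the Gq family activate phospholipase C beta, and those of the G12 and G13 family act through exchange factors of the Arhgef group. In the cortex these proteins carry the slow signals of glutamate, GABA, acetylcholine, monoamines and neuropeptides.

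The arrays come from a control study that asked how far dilution and amplification of mRNA alter what an array reports. All groups share their source, mRNA of untreated adult female C57BL/6 mouse cortex, of which 5 µg was hybridized unamplified to 1 array (bulk). Diluted mRNA was amplified by in vitro transcription (aRNA): 10 pg for 2 rounds on 1 array, and 1 pg for 2 rounds, 0.1 pg for 2 rounds, 10 pg for 4 rounds, 1 pg for 4 rounds and 0.1 pg for 4 rounds on 3 arrays each. The labels describe a single isolation of mRNA, so the spread within a group, and every p-value here, measures amplifications and arrays and not animals.

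Levels are given as log2 signal relative to the median of the array, after each array was scaled to a common spread, so that 0 is the middle of all probe sets. Background was not measured, and a level near or below 0 does not tell whether the mRNA was present. Probes differ in their efficiency, so comparisons are made between arrays for the same probe set. The genes with the highest and the lowest signal in bulk were picked, by the probe set of highest mean, as those to be shown array by array, and this order is not one of mRNA abundance. The 17 arrays differed in how many distinct values they hold, from 872 on the single array of 10 pg after 2 rounds to 4345. On that array the 78 probe sets of the G protein subunits took only 29 distinct values, against 72 in bulk, and on the 3 arrays of 0.1 pg after 2 rounds they took 27, 32 and 56, so small differences on these arrays cannot be resolved. Of the probe sets, 9 end in _s_at and 4 in _x_at, which in the naming of the manufacturer marks probes that can bind transcripts of more than one gene. The number of arrays limits the precision of every comparison.

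Most of the markers for neurons and astrocytes of the cortex were high in bulk. The median percentile of the signal among all genes was 91.5 for 7 pan-neuronal markers, 86.7 for 5 astrocyte markers, 74.3 for the 3 measured of 4 excitatory markers and 73.9 for 5 inhibitory markers. It was 70.5 for the 4 measured of 5 oligodendrocyte markers and 63.1 for 5 taste cell markers. It was 44.4 for the 2 measured of 3 blood markers, 40.0 for 5 vascular markers and 29.9 for 5 microglial markers. The microglial markers ran from 5.06 for Aif1 to 97.9 for Cx3cr1. Below the array median in bulk were the neuronal markers Tubb3 (-1.73), Slc32a1 (-1.25) and Sst (-0.145) and the astrocyte marker Gfap (-0.351). Such a level does not tell fewer cells of a type from less RNA per cell. Between 10 and 0.1 pg after 4 rounds the pan-neuronal markers went from a median percentile of 96.5 ± 1.84 to 83.1 ± 5.58 (SD, n = 3), the excitatory markers from 78.6 ± 6.27 to 25.2 ± 11.99, the inhibitory markers from 75.7 ± 9.04 to 35.7 ± 6.83 and the vascular markers from 26.2 ± 8.73 to 14.8 ± 1.19. Oligodendrocyte markers went from 47.0 ± 9.86 to 66.1 ± 3.52 and blood markers from 34.4 ± 5.08 to 56.6 ± 6.34. All these arrays carry dilutions of the same mRNA, and the part of the shifts in the results below was not tested.

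As a group, G protein subunits lay above the middle of the signal in every group. With each gene represented by the probe set of its highest mean, the median percentile of the 31 genes was 68.2 in bulk, 68.3 at 10 pg after 2 rounds and 68.2 ± 0.0330 at 10 pg after 4 rounds (SD, n = 3). It was 67.1 ± 1.29 at 1 pg after 4 rounds and 61.7 ± 3.18 at 0.1 pg after 4 rounds. After 2 rounds it was 61.1 ± 0.992 at 1 pg and 60.3 ± 9.13 at 0.1 pg. These are ranks of signal, and where a gene was represented by the median of its probe sets they were lower, except at 0.1 pg after 2 rounds (60.8). Above the array median on all 17 arrays were 13 of the 78 probe sets (16.7%, against 12.9% of all probe sets), from 10 genes. At or below it on all 17 were 3 probe sets (3.85%, against 9.22%), namely 1447791_s_at for Gna14, 1437225_x_at for Gnai3 and the probe set of Gngt2.

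**Figure D1:**
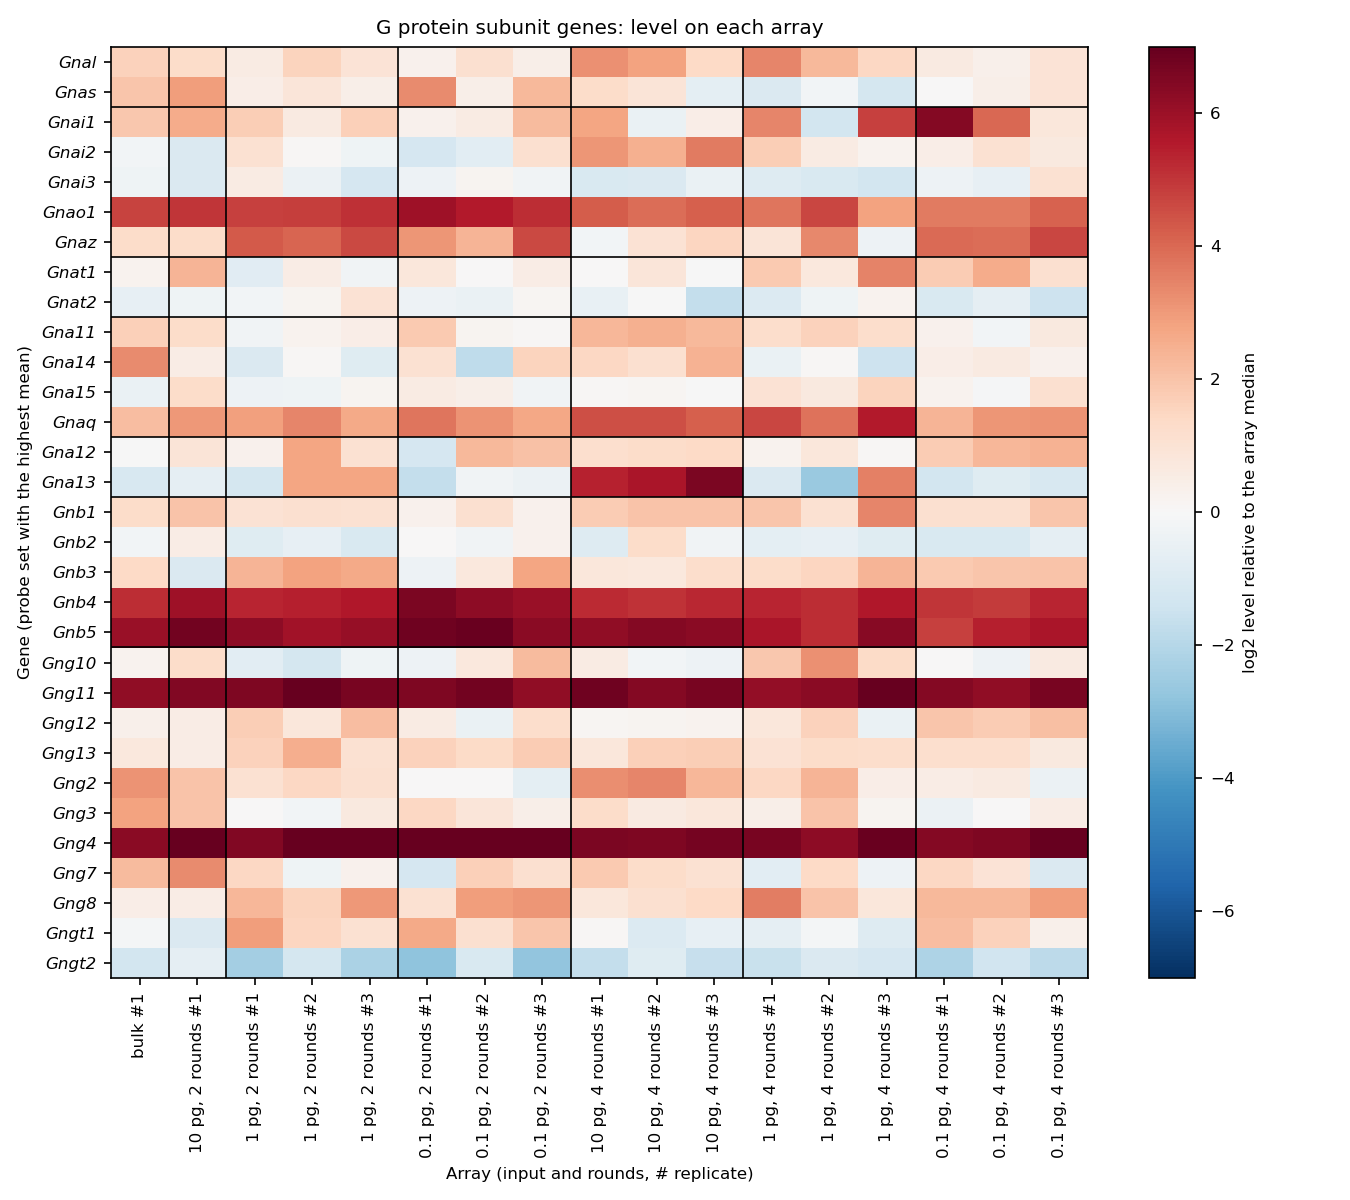
Level of the 31 G protein subunit genes (rows, by family) on each of the 17 arrays (columns), each by its probe set of highest mean, as log2 signal relative to the array median. Gnao1, Gnb4, Gnb5, Gng4 and Gng11 were above the median on all 17 arrays, whereas Gna13 was high on the 3 arrays of 10 pg after 4 rounds (5.40, 5.71 and 6.61) and at -1.11 in bulk.

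Among the alpha subunits, Gnao1, which encodes the Go alpha chain abundant in neurons, and Gna14, a Gq family member of narrower expression, had the highest signal in bulk. The Gnao1 probe set 1448031_at was 4.73 in bulk, and after 2 rounds 5.01 at 10 pg, 4.79, 4.84 and 5.09 at 1 pg and 5.96, 5.55 and 5.16 at 0.1 pg. After 4 rounds its levels were 4.24, 3.92 and 4.20 at 10 pg, 3.72, 4.67 and 2.80 at 1 pg and 3.61, 3.63 and 4.14 at 0.1 pg. It was thus far above the array median on every array, and lowest on replicate 3 of 1 pg after 4 rounds. Gna14 (1420385_at) behaved otherwise, being highest in bulk at 3.32. With 2 rounds its levels were 0.51 at 10 pg, -1.03, 0.09 and -0.87 at 1 pg and 1.05, -1.77 and 1.56 at 0.1 pg. With 4 rounds they were 1.43, 1.11 and 2.42 at 10 pg, -0.46, 0.10 and -1.44 at 1 pg and 0.47, 0.62 and 0.33 at 0.1 pg. None of its amplified arrays reached the bulk level, and 2 other Gna14 probe sets had medians of -2.45 and -0.13 over the 17 arrays.

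The lowest signal among the alpha subunits in bulk was that of the probe sets picked for Gna13, whose product activates exchange factors of the Arhgef group, and Gnat2, the transducin alpha chain of cones. Gna13 is described with the comparison of inputs, and others of its probe sets were higher in bulk, 1433749_at at 2.03 and 1460317_s_at at 1.65. For Gnat2 (1422907_at) the levels were -0.56 in bulk, and after 2 rounds -0.30 at 10 pg, -0.17, 0.16 and 0.99 at 1 pg and -0.35, -0.47 and 0.14 at 0.1 pg. After 4 rounds they were -0.54, -0.02 and -1.65 at 10 pg, -0.94, -0.29 and 0.26 at 1 pg and -1.04, -0.65 and -1.47 at 0.1 pg. Its arrays scattered around and below the array median in all 7 groups. Photoreceptor markers had a median percentile of 53.5 in bulk for the 6 measured of 7, so their signal in this cortex was near the middle of the array and not at its foot.

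The other alpha subunits are given by their probe set of highest mean. Gnas (1450186_s_at), the ubiquitous Gs chain from an imprinted locus whose transcripts share exons, ranged from -1.21 to 3.29 over the 17 arrays. Gnal (1442021_at), the Gs-like chain of olfactory and striatal neurons, ranged from 0.30 to 3.42. Gnai1 (1454959_s_at), an inhibitory chain, ranged from -1.29 to 6.41 and was among the widest. On the 3 arrays of 0.1 pg after 4 rounds alone it was 6.41, 4.03 and 0.77. The other Gnai1 probe sets reached at most 0.84. Its relative Gnai3 kept to -1.29 to 1.07 by 1428645_at, while its probe set 1437225_x_at ran from -2.78 to 0.00. Gnaq, the main activator of phospholipase C beta in brain, was above the median throughout by its probe set 1450115_at (2.19 to 5.57 with a median of 3.16). Gna15, a Gq family chain known mainly from blood cells, ranged from -0.46 to 1.55, and Gna12 (1421026_at) from -1.15 to 2.78. Gnat1, the rod transducin chain, ranged from -0.79 to 3.48. In all of these except Gnaq 1450115_at and Gnal 1442021_at, at least 1 array lay below the median.

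Gnb5, which pairs with RGS proteins of the R7 family and is enriched in neurons, and Gnb4 had the highest signal of the beta subunits in bulk. The Gnb5 probe set 1422208_a_at was 6.04 in bulk, and after 2 rounds 6.77 at 10 pg, 6.26, 5.87 and 6.09 at 1 pg and 6.81, 6.89 and 6.34 at 0.1 pg. The arrays after 4 rounds gave 6.21, 6.43 and 6.30 at 10 pg, 5.74, 5.18 and 6.35 at 1 pg and 4.79, 5.43 and 5.72 at 0.1 pg. Every array lay at least 4.79 above the median. Gnb4 (1419470_at) was 5.15 in bulk, and after 2 rounds 5.94 at 10 pg, 5.35, 5.45 and 5.60 at 1 pg and 6.61, 6.25 and 6.06 at 0.1 pg. Its levels after 4 rounds were 5.22, 5.08 and 5.27 at 10 pg, 5.35, 5.16 and 5.62 at 1 pg and 5.01, 4.88 and 5.31 at 0.1 pg. The range of 1419470_at over the 17 arrays was 1.73, against a median range of 3.215 for the 78 probe sets and 3.223 for all. Of the other Gnb4 probe sets, 1419469_at had a range of 4.62, and 1439632_at a range of 1.72 with a median level of -0.225. The other Gnb5 probe set, 1447630_x_at, ran from 1.27 to 4.22.

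Among the beta subunits the lowest signal in bulk was that of the probe sets picked for Gnb2 and Gnb1, which encode the widely expressed beta chains. Gnb2 (1450623_at) was -0.19 in bulk, and after 2 rounds 0.51 at 10 pg, -0.85, -0.56 and -1.08 at 1 pg and 0.00, -0.23 and 0.32 at 0.1 pg. The values after 4 rounds came to -0.91, 1.28 and -0.26 at 10 pg, -0.68, -0.58 and -0.85 at 1 pg and -1.04, -1.05 and -0.61 at 0.1 pg. It lay above the array median on 3 of the 17 arrays. Gnb1, by 1425908_at, was 1.27 in bulk, and after 2 rounds 1.98 at 10 pg, 1.02, 1.11 and 1.09 at 1 pg and 0.30, 1.12 and 0.32 at 0.1 pg. After 4 rounds its levels were 1.80, 2.02 and 2.00 at 10 pg, 1.93, 1.06 and 3.40 at 1 pg and 1.14, 1.14 and 1.94 at 0.1 pg. It was above the median on all 17 arrays, and replicate 3 of 1 pg after 4 rounds was the highest. Another probe set of Gnb1, 1454696_at, stood at 4.81 in bulk. Gnb3, the beta chain of cones and taste cells, ranged from -0.99 to 2.83 with a median of 1.50.

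Among the gamma subunits, Gng4 and Gng11 had the highest signal in bulk. The Gng4 probe set 1417944_at was 6.34 in bulk, and after 2 rounds 7.23 at 10 pg, 6.48, 7.05 and 7.07 at 1 pg and 7.68, 7.27 and 7.26 at 0.1 pg. After 4 rounds it was 6.61, 6.56 and 6.69 at 10 pg, 6.64, 6.25 and 6.94 at 1 pg and 6.43, 6.56 and 7.03 at 0.1 pg. A further Gng4 probe set, 1447669_s_at, ranged from -2.84 to 5.88, so the steadiness belonged to the probe set and not to all probe sets of the gene. Gng11 (1448942_at), a gamma chain of many tissues, was 6.23 in bulk, and after 2 rounds 6.50 at 10 pg, 6.56, 6.97 and 6.63 at 1 pg and 6.54, 6.77 and 6.18 at 0.1 pg. The arrays after 4 rounds gave 6.80, 6.42 and 6.63 at 10 pg, 6.14, 6.33 and 6.96 at 1 pg and 6.42, 6.23 and 6.66 at 0.1 pg. Its range of 0.836 over the 17 arrays was the narrowest of the 78 probe sets.

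The lowest signal of the gamma subunits in bulk was that of Gngt2 of cones and Gngt1 of rods. Gngt2 (1428733_at) was -1.28 in bulk, and after 2 rounds -0.62 at 10 pg, -2.35, -1.23 and -2.20 at 1 pg and -2.84, -1.05 and -2.75 at 0.1 pg. The values after 4 rounds came to -1.66, -0.83 and -1.61 at 10 pg, -1.54, -1.01 and -1.16 at 1 pg and -2.16, -1.35 and -1.81 at 0.1 pg. No array put Gngt2 above the median. Gngt1, by 1425219_x_at, was -0.16 in bulk, and after 2 rounds -0.99 at 10 pg, 2.94, 1.50 and 1.04 at 1 pg and 2.66, 1.12 and 1.95 at 0.1 pg. After 4 rounds it was 0.10, -0.97 and -0.59 at 10 pg, -0.64, -0.15 and -0.91 at 1 pg and 2.14, 1.63 and 0.37 at 0.1 pg. By this probe set the arrays of 1 and 0.1 pg after 2 rounds were all above bulk, whereas at 10 and 1 pg after 4 rounds 5 of 6 lay below the array median. The other Gngt1 probe sets did not all follow. At 1 pg after 2 rounds the mean of 1425168_at was 0.96, with -1.11 in bulk. Those of 1425167_a_at (-1.42, with 0.34 in bulk) and 1451633_a_at (-0.96, with -0.04 in bulk) were lower than bulk.

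The remaining gamma subunits were intermediate. Gng3, a gamma chain of neurons, was highest in bulk (2.81) and otherwise ranged down to -0.42. Gng7, known from the striatum, ranged from -1.15 to 3.31, and Gng8, known from olfactory and vomeronasal neurons, from 0.44 to 3.60. Gng13 (1447282_at), known from taste cells and retinal bipolar cells, ranged from 0.51 to 2.55. Gng12 (1421947_at) ranged from -0.47 to 2.17 and Gng10 from -1.23 to 3.22, both chains of broad expression.

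The widest comparison of inputs at the same number of rounds set 0.1 against 10 pg after 4 rounds, with 3 arrays a side. In limma with Benjamini-Hochberg adjustment, 6 of the 78 probe sets fell at 0.1 pg and 1 rose, from the genes Gna13, Gng2, Gna11, Gnai2 (2 probe sets), Gnaq and Gnaz. That is 8.97% of the G protein probe sets, against 8.86% of all 45037 (4.04% higher and 4.82% lower), so the share is that of the array as a whole and is no result about G proteins. The calls were 6 of 47 in the alpha subunits, 0 of 10 in the beta subunits and 1 of 21 in the gamma subunits. Of the 10 beta probe sets, 2 passed at an unadjusted p under 0.05, as did 11454 of all 45037, and 0 passed with the methods' t-test. The median log2 difference of the 78 probe sets was -0.315, and that of all probe sets was 0.097. On the deposited values or with median centering alone, 3 rose and 9 fell. Over all 45037 probe sets, 2786 rose and 2256 fell on the deposited values, and 2229 rose and 2487 fell with median centering alone. The methods' t-test called 3 of the 78, of which 2 (Gna13 1450656_at and Gna11 1434254_at) are among the 7.

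**Figure D2:**
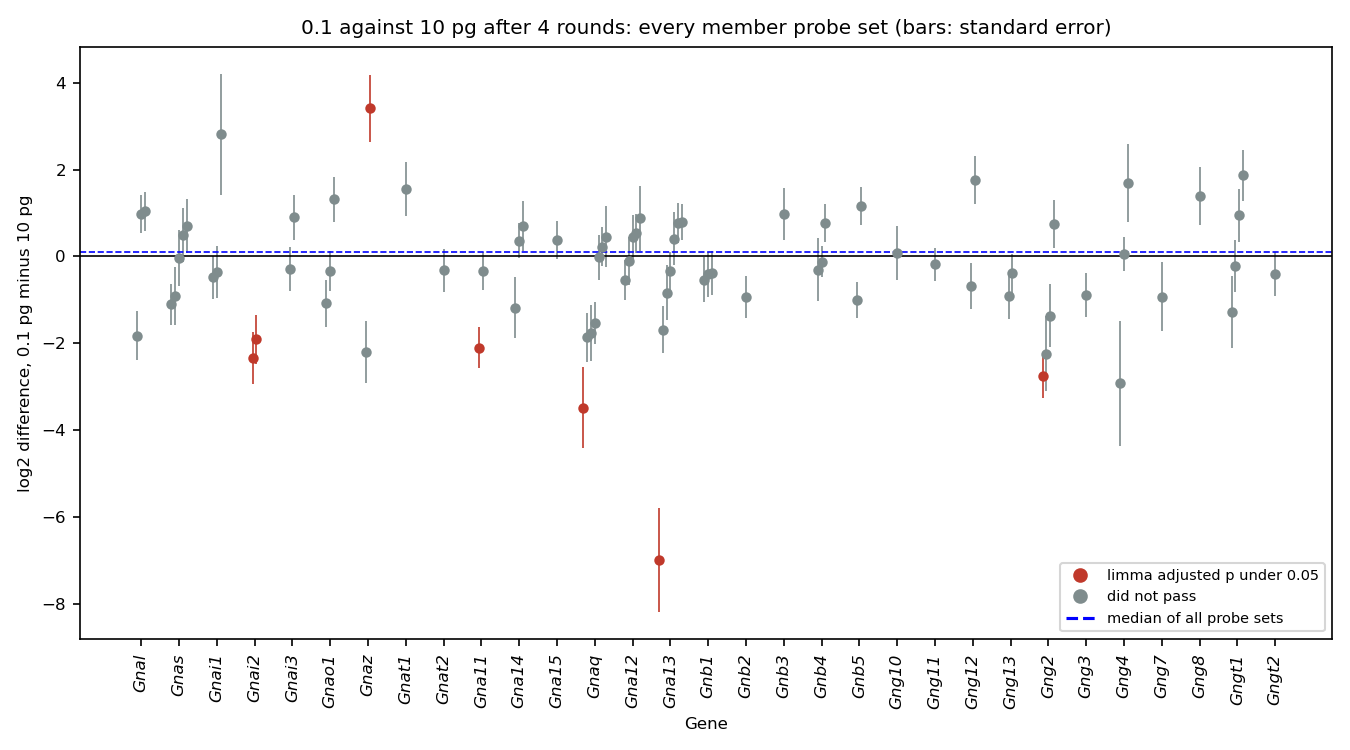
Difference in log2 level between 0.1 and 10 pg after 4 rounds for each of the 78 probe sets, by gene, with the standard error of the limma fit as bars, and with the 7 probe sets at an adjusted p under 0.05 in red. Gna13 had the farthest value (-6.98), Gnaz was the only gene with a red point above 0 (3.41), and the dashed line marks the median of all probe sets (0.097).

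Gna13 showed the largest fall by 1450656_at. After 4 rounds its levels were 5.40, 5.71 and 6.61 at 10 pg, -1.03, -2.59 and 3.50 at 1 pg and -1.26, -0.85 and -1.11 at 0.1 pg. It was -1.11 in bulk, and after 2 rounds -0.62 at 10 pg, -1.25, 2.76 and 2.76 at 1 pg and -1.64, -0.23 and -0.38 at 0.1 pg. The 10 pg arrays stood above every other array, bulk included, and the 0.1 pg arrays were near bulk. The difference was -6.98 (SE 1.20, adjusted p = 0.00220 in limma), and it passed with any of the 6 arrays left out, with adjusted p up to 0.0119. The other 6 probe sets of Gna13 did not pass, and their differences ran from -1.68 to 0.80.

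Gng2, a gamma chain abundant in brain, fell by 1428156_at. Its levels after 4 rounds were 3.27, 3.41 and 2.34 at 10 pg, 1.44, 2.36 and 0.46 at 1 pg and 0.52, 0.64 and -0.40 at 0.1 pg. They were 3.13 in bulk, and after 2 rounds 1.98 at 10 pg, 1.07, 1.48 and 1.11 at 1 pg and 0.00, 0.00 and -0.68 at 0.1 pg. The bulk level lay within the range of the 10 pg arrays, and all 0.1 pg arrays after 4 rounds lay below all 10 pg arrays. The difference was -2.75 (SE 0.506, adjusted p = 0.00351 in limma) and passed with any of the 6 arrays left out. The other 3 probe sets of Gng2 gave -2.24, -1.37 and 0.74 and did not pass.

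Gna11, which like Gnaq activates phospholipase C beta, fell by 1434254_at. The levels after 4 rounds were 2.32, 2.51 and 2.25 at 10 pg, 1.23, 1.61 and 1.25 at 1 pg and 0.29, -0.19 and 0.67 at 0.1 pg. Elsewhere they were 1.66 in bulk, and after 2 rounds 1.27 at 10 pg, -0.25, 0.24 and 0.47 at 1 pg and 1.81, 0.21 and 0.07 at 0.1 pg. The 3 levels at 0.1 pg after 4 rounds lay below the bulk level and the 3 at 10 pg above it. The difference was -2.10 (SE 0.470, adjusted p = 0.0112 in limma), and without replicate 2 of 0.1 pg the adjusted p was 0.0636. The other Gna11 probe set, 1449144_at, gave -0.34 and did not pass.

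Gnaz, whose product inhibits adenylyl cyclase and is insensitive to pertussis toxin, rose by 1435268_at. After 4 rounds the levels were -0.22, 1.01 and 1.51 at 10 pg, 0.91, 3.34 and -0.38 at 1 pg and 3.95, 3.94 and 4.65 at 0.1 pg. They were 1.27 in bulk, and after 2 rounds 1.27 at 10 pg, 4.31, 4.06 and 4.60 at 1 pg and 3.10, 2.37 and 4.64 at 0.1 pg. The 0.1 pg arrays stood above bulk and above all 10 pg arrays, as did the 6 arrays of 1 and 0.1 pg after 2 rounds. The difference was 3.41 (SE 0.772, adjusted p = 0.0119 in limma), with an adjusted p of 0.0734 without replicate 1 of 10 pg. The other probe set of Gnaz, 1426517_at, had the opposite sign at -2.20 (adjusted p = 0.0663 in limma). Its levels after 4 rounds were 1.57, 4.34 and 3.62 at 10 pg, 1.01, -0.23 and 0.26 at 1 pg and 1.10, 1.09 and 0.74 at 0.1 pg. It stood at 1.01 in bulk, and after 2 rounds 1.27 at 10 pg, 0.86, -0.19 and -0.05 at 1 pg and 0.57, -0.74 and 2.18 at 0.1 pg. The probe sets of Gnaz therefore give no common direction for the gene.

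Gnaq fell by 1428939_s_at, a probe set that can bind more than one transcript. After 4 rounds its levels were 3.48, 1.54 and 0.49 at 10 pg, 1.12, -1.12 and 0.11 at 1 pg and -0.61, -2.26 and -2.06 at 0.1 pg. It was 1.32 in bulk, and after 2 rounds -0.62 at 10 pg, -1.17, -2.33 and -0.45 at 1 pg and -3.43, -2.68 and 0.32 at 0.1 pg. The groups compared did not overlap, although the 10 pg arrays themselves spread over several log2 units. The difference was -3.48 (SE 0.928, adjusted p = 0.0283 in limma). It was lost without replicate 1 or 2 of 10 pg or replicate 2 or 3 of 0.1 pg, with adjusted p up to 0.152. The highest Gnaq probe set, 1450115_at, gave -1.53 and did not pass, and the 5 others ran from -1.86 to 0.46.

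Gnai2, an inhibitory chain of broad expression, fell by both of its probe sets. For 1419449_a_at the levels after 4 rounds were 3.10, 2.49 and 3.62 at 10 pg, 1.72, 0.58 and 0.26 at 1 pg and 0.45, 1.06 and 0.67 at 0.1 pg, with -0.18 in bulk. For 1435652_a_at they were 0.94, 0.48 and 0.49 at 10 pg, 0.42, 0.36 and 0.97 at 1 pg and -1.74, -0.01 and -2.06 at 0.1 pg, with 1.66 in bulk. The 0.1 pg arrays lay below the 10 pg arrays in each, but bulk was below the 0.1 pg arrays in the first and above the 10 pg arrays in the second. The differences were -2.34 (SE 0.596, adjusted p = 0.0228 in limma) and -1.91 (SE 0.566, adjusted p = 0.0457). Each passed in only 1 of the 6 fits with an array left out, the first without replicate 2 of 10 pg and the second without replicate 2 of 0.1 pg, and the other fits gave adjusted p up to 0.0906 and 0.172.

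**Figure D3:**
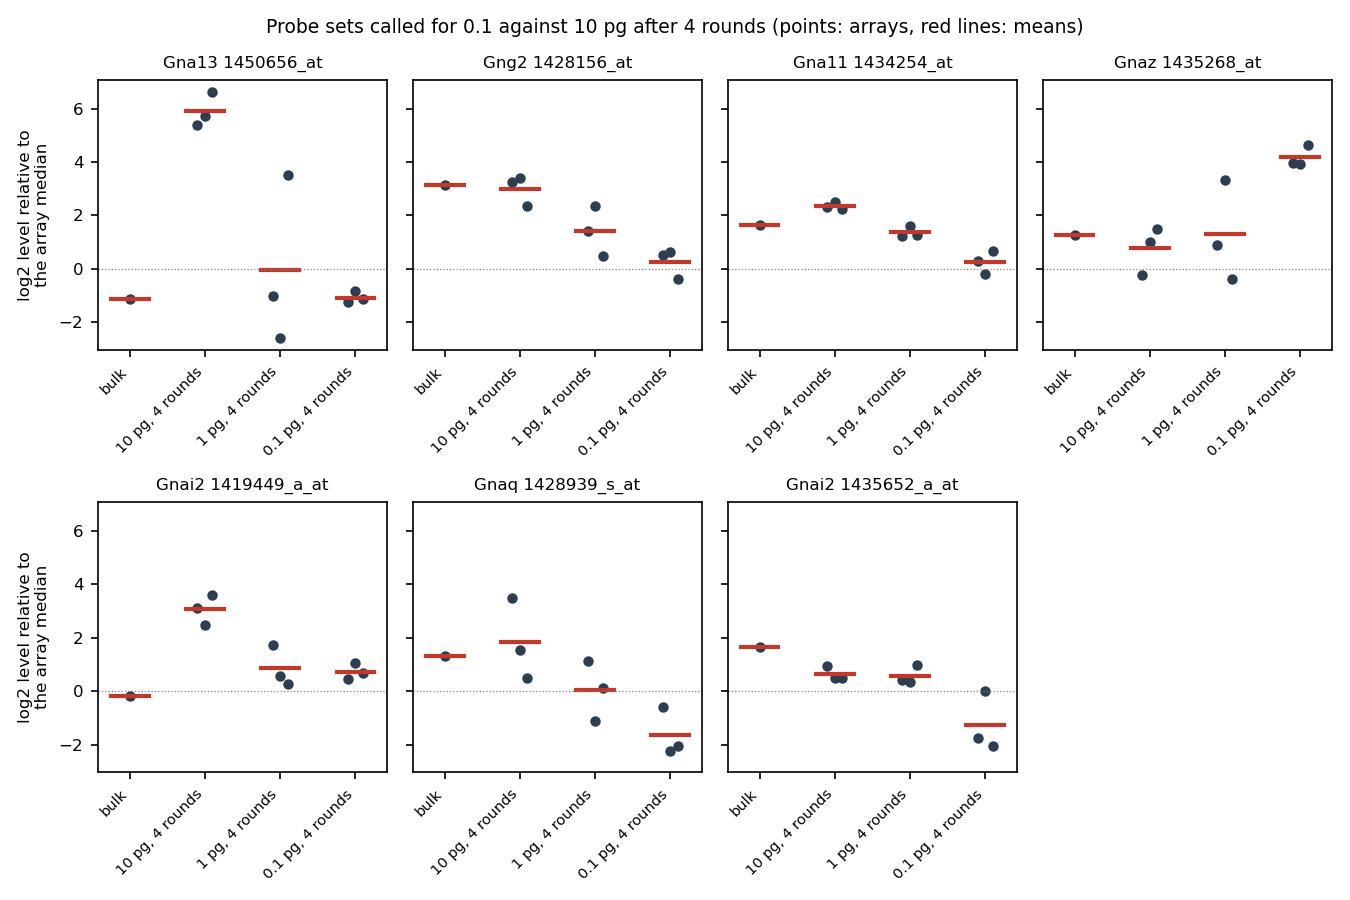
Level on each array (points) and group mean (red lines) of the 7 probe sets called between 0.1 and 10 pg after 4 rounds, in bulk and at the 3 inputs after 4 rounds, as log2 signal relative to the array median. The panels were picked by this same comparison, so that the 0.1 and 10 pg arrays do not overlap in any of them adds no support. Bulk was close to 10 pg for Gng2 (3.13 against 3.003 ± 0.582) but far from it for Gna13 (-1.11 against 5.91 ± 0.627).

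Probe sets of the same gene often differed in sign or in call. These counts were not made for the other genes of the array, so they are no result about G proteins. Probe sets of a gene were not tested against each other, and differences near 0 can take either sign by noise alone. Of the 20 genes with several probe sets, 5 (Gna11, Gna13, Gnaq, Gnaz and Gng2) had probe sets on both sides of the threshold between 0.1 and 10 pg, and 16 had probe sets of both signs. The median gap between the highest and the lowest difference of a gene was 2.278 on the log2 scale, and for Gna13 it was 7.779. In the other comparisons the number of genes with both signs ranged from 11 to 18 of 20. Statements on a gene here therefore hold for the probe set used and not for all probe sets of the gene.

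**Figure D4:**
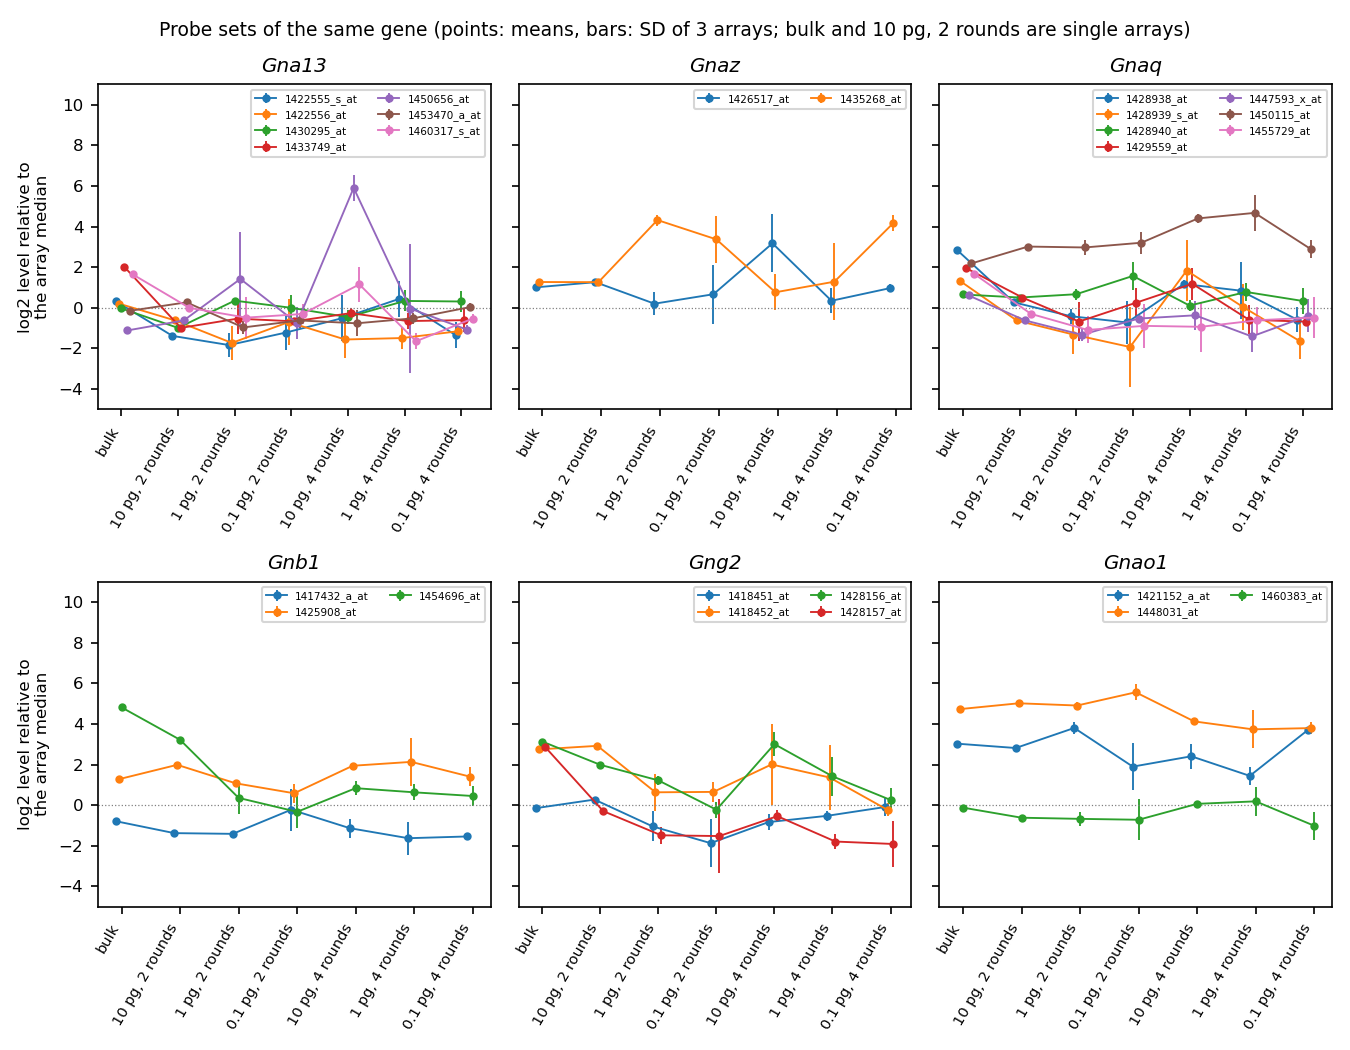
Mean log2 level relative to the array median, by group, of every probe set of Gna13, Gnaz, Gnaq, Gnb1, Gng2 and Gnao1 (points and lines, 1 colour a probe set), with the SD of 3 arrays as bars and none for the 2 single arrays. Of Gna13 only 1450656_at peaks at 10 pg after 4 rounds (5.91 ± 0.627), and at 10 pg after 4 rounds the order of the Gnaz probe sets is the reverse of that at 0.1 pg after 4 rounds.

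Between 1 and 10 pg after 4 rounds the calls were in Gna13 alone. They were 2 of 78 probe sets (2.56%, against 0.646% of all, of which 0.0622% were higher and 0.584% lower), both lower at 1 pg and both for mRNA of this gene, and the comparison shares its 10 pg arrays with the previous one. The values of 1450656_at are given above, and the difference was -5.95 (SE 1.20, adjusted p = 0.0289 in limma). Its 1 pg arrays were -1.03, -2.59 and 3.50, so replicate 3 stood apart, and the call held in only 1 of 6 fits with an array left out, the one without that replicate. The other probe set, 1460317_s_at, was 1.98, 1.23 and 0.27 at 10 pg, -2.07, -1.57 and -1.29 at 1 pg and -0.57, -0.72 and -0.30 at 0.1 pg after 4 rounds. It was 1.65 in bulk, and after 2 rounds 0.00 at 10 pg, -0.40, 0.52 and -1.55 at 1 pg and -0.72, 0.21 and -0.38 at 0.1 pg. No 1 pg array reached the 10 pg arrays, of which replicate 1 was above bulk. The difference was -2.80 (SE 0.543, adjusted p = 0.0234), and it was lost without replicate 1 or 2 of 10 pg or replicate 1 of 1 pg, with adjusted p up to 0.153. A fit of the compared groups alone and the methods' t-test called 0. The median difference of the 78 probe sets was -0.065, and that of all was 0.047.

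Between 0.1 and 1 pg, averaged over 2 and 4 rounds with 6 arrays a side, no G protein probe set passed in limma, while 1.24% of all probe sets did (0.255% higher and 0.986% lower). At an unadjusted p under 0.05 there were 9 of 78, against 6787 of all 45037. The methods' t-test with the same adjustment gave 0. The differences ran from -1.605 to 1.339, with a median of 0.078, against 0.051 for all. Leaving out 1 array added 1 call in 2 cases. Without replicate 2 of 0.1 pg after 2 rounds, the Gnas probe set 1450186_s_at was higher at 0.1 pg by 1.74 (adjusted p = 0.0388), and without replicate 3 of 1 pg after 4 rounds, the Gng2 probe set 1428156_at was lower at -1.54 (adjusted p = 0.0440). A p that misses the threshold does not show that the levels were alike, and these genes were named after their values were seen.

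The effect of rounds, 4 against 2 averaged over 1 and 0.1 pg with 6 arrays a side, was called for 1 probe set each of 3 alpha subunits. The Gnao1 and Gnal probe sets 1448031_at and 1439957_at fell with more rounds, and Gnat1 rose. These are 3.85% of the 78 probe sets, against 3.9% of all (1.99% higher and 1.91% lower), so the share is again that of the array as a whole. The median difference was -0.032 for the 78 and -0.05 for all. With median centering alone 1 rose and 1 fell, where 952 of all 45037 rose and 833 fell. The methods' t-test called 0 of the 78.

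Gnao1 (1448031_at), whose values are given above, was lower on each of the 6 arrays after 4 rounds than on any of the 6 after 2 rounds at these inputs. The difference was -1.47 (SE 0.324, adjusted p = 0.0229 in limma). The 3 probe sets of Gnao1 gave -1.47 to 0.285, and only 1448031_at passed. The call of 1448031_at is described next. It passed in 8 of 12 fits with an array left out and was lost without replicate 3 of 1 pg after 2 rounds, replicate 1 of 1 pg after 4 rounds, or replicate 1 or 2 of 0.1 pg after 4 rounds, with adjusted p up to 0.0567. For Gnal (1439957_at) the levels were 0.15 in bulk, and after 2 rounds 2.11 at 10 pg, 2.56, 1.59 and 2.69 at 1 pg and 2.41, 1.88 and 3.34 at 0.1 pg. After 4 rounds they were 0.39, -0.06 and 0.37 at 10 pg, 0.48, 0.73 and 0.91 at 1 pg and 1.46, 0.82 and 1.52 at 0.1 pg. The arrays did not overlap by rounds at 1 and 0.1 pg. As for Gnao1, the probe set was picked by this same comparison, so the lack of overlap adds no support. The difference for Gnal was -1.43 (SE 0.323, adjusted p = 0.0250 in limma). It was lost without replicate 1 or 3 of 1 pg after 2 rounds, replicate 1 of 1 pg after 4 rounds or replicate 2 of 0.1 pg after 4 rounds, with adjusted p up to 0.0660. Of the other Gnal probe sets, 1442021_at gave 0.70 and 1446359_at 0.66, and neither passed.

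Gnat1 (1460212_at), the alpha chain of rod transducin, was 0.22 in bulk, and after 2 rounds 2.36 at 10 pg, -0.79, 0.52 and -0.24 at 1 pg and 0.82, 0.00 and 0.50 at 0.1 pg. The arrays after 4 rounds gave 0.00, 0.84 and -0.05 at 10 pg, 1.82, 0.73 and 3.48 at 1 pg and 1.76, 2.58 and 1.13 at 0.1 pg. The highest array after 2 rounds exceeded the lowest after 4 rounds, so the groups overlapped. The difference was 1.78 (SE 0.437, adjusted p = 0.0337 in limma), and it passed in 5 of 12 fits with an array left out. With the replicate number as a block the adjusted p was 0.0514 in limma, and the fit of the compared groups alone and the methods' t-test did not call it either. The call was lost without replicate 1 or 3 of 1 pg after 2 rounds, replicate 2 of 0.1 pg after 2 rounds, replicate 1 or 3 of 1 pg after 4 rounds, or replicate 1 or 2 of 0.1 pg after 4 rounds, with adjusted p up to 0.0868. Beside it, for the 6 measured of 7 photoreceptor markers, the median percentile at 1 pg went from 28.7 ± 2.03 with 2 rounds to 59.5 ± 9.83 with 4, and that of 0.1 pg from 28.3 ± 11.8 to 39.7 ± 12.5. On the 1 pg arrays their median level ran from -0.42 to -0.24 with 2 rounds and from 0.56 to 1.53 with 4. On the 0.1 pg arrays it ran from -1.22 to -0.04 and from -0.43 to 0.58. At 1 pg the means of all measured markers but Rcvrn were higher with 4 rounds. For Rcvrn they were -0.44 with 2 and -0.459 with 4. At 0.1 pg the means of Pde6b and Sag were higher with 4 rounds and those of Opn1mw, Crx and Rcvrn lower. That of Opn1sw was 0.331 with both. No test of these markers was run, and their part in the result was not tested. In the comparison of rounds the 4 Gngt1 probe sets gave -1.46 to -0.42 and Gnat2 gave -0.74, none past the threshold. Gngt2 had means of -1.93 and -2.21 at 1 and 0.1 pg with 2 rounds, and of -1.24 and -1.77 with 4.

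The effect of rounds also differed between the inputs, in opposite directions for Gnao1 and Gng10. The test of this difference called 2 of 78 probe sets, 1 in each direction (2.56%, against 3.59% of all, with 2.46% higher and 1.13% lower). The Gnao1 probe set 1421152_a_at was 3.03 in bulk, and after 2 rounds 2.81 at 10 pg, 4.08, 3.78 and 3.53 at 1 pg and 2.41, 0.56 and 2.72 at 0.1 pg. The values after 4 rounds came to 1.97, 2.15 and 3.10 at 10 pg, 1.32, 1.95 and 1.05 at 1 pg and 3.74, 3.70 and 3.71 at 0.1 pg. At 1 pg all arrays after 4 rounds lay below all after 2 rounds, and at 0.1 pg all arrays after 4 rounds exceeded all after 2 rounds. The difference of the effects was 4.18 (SE 0.744, adjusted p = 0.00947 in limma), and it passed in all 12 fits with an array left out. The other Gnao1 probe sets, 1448031_at and 1460383_at, gave -0.59 and -1.16 and did not pass.

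Gng10 (1450649_at) was 0.23 in bulk, and after 2 rounds 1.27 at 10 pg, -0.73, -1.23 and -0.31 at 1 pg and -0.35, 0.71 and 2.21 at 0.1 pg. After 4 rounds its levels were 0.59, -0.18 and -0.37 at 10 pg, 1.88, 3.22 and 1.35 at 1 pg and 0.01, -0.34 and 0.61 at 0.1 pg. At 1 pg the arrays after 4 rounds were all higher than those after 2 rounds, while at 0.1 pg the arrays overlapped. The difference of the effects was -3.67 (SE 0.871, adjusted p = 0.0312 in limma). It was lost without any of the 3 arrays of 1 pg after 2 rounds, replicate 1 of 1 pg after 4 rounds, or replicate 1 or 2 of 0.1 pg after 4 rounds, with adjusted p up to 0.0839. The median of the 78 probe sets was -0.051, against -0.032 for all.

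**Figure D5:**
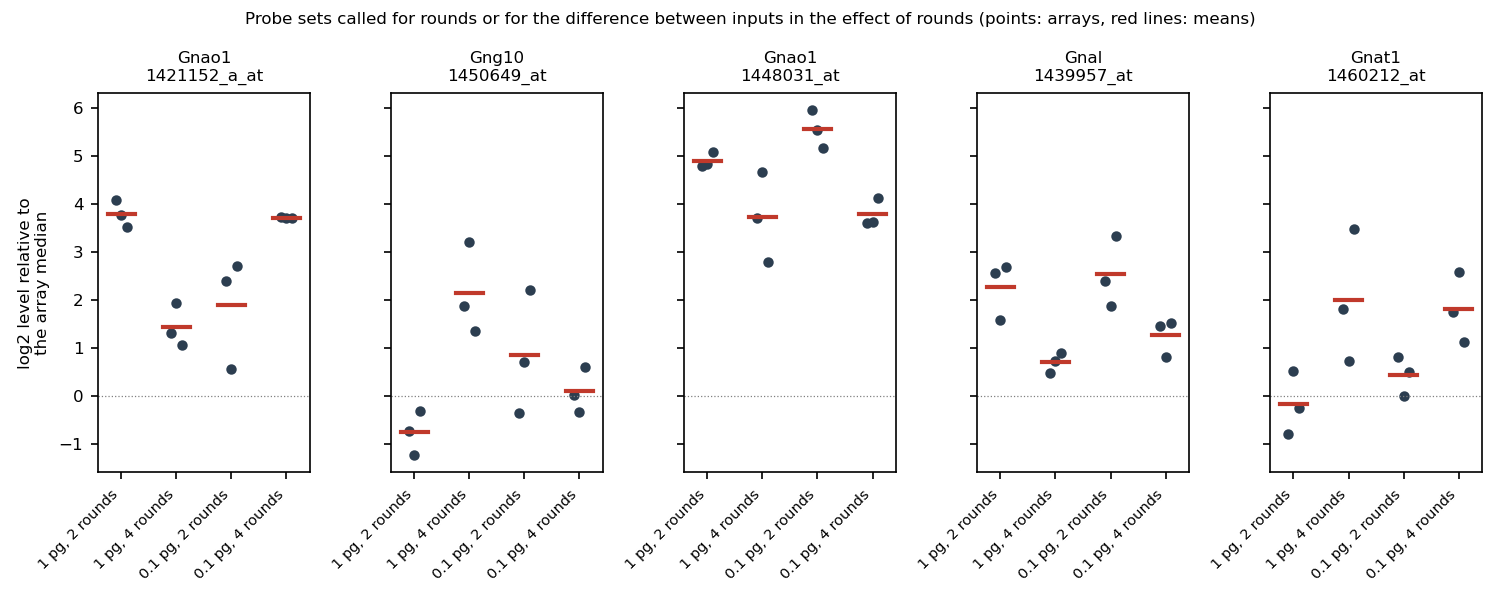
Level on each array (points) and group mean (red lines) at 1 and 0.1 pg after 2 and 4 rounds, as log2 signal relative to the array median, for the 5 probe sets called for rounds or for the difference between inputs in the effect of rounds. Gnao1 1421152_a_at goes from 3.80 ± 0.276 to 1.44 ± 0.459 at 1 pg and from 1.90 ± 1.16 to 3.72 ± 0.0206 at 0.1 pg, whereas the other Gnao1 probe set, 1448031_at, is lower after 4 rounds at both inputs.

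Against unamplified mRNA, 1 probe set each of Gnb1, Gna13 and Gng2 was lower in the amplified groups. These are 3 of 78 (3.85%, against 1.1% of all, with 0.0733% higher and 1.03% lower), and none rose. The mean of the 6 amplified groups was set against the single bulk array, whose spread was taken from the other groups, so a deviation of that array and an effect of amplification cannot be told apart. The median difference of the 78 probe sets was -0.205, and that of all was 0.099.

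Gnb1 fell by 1454696_at. Its levels were 4.81 in bulk, and after 2 rounds 3.22 at 10 pg, 0.94, -0.56 and 0.68 at 1 pg and -1.15, -0.23 and 0.39 at 0.1 pg. After 4 rounds they were 1.15, 0.87 and 0.49 at 10 pg, 0.42, 0.40 and 1.07 at 1 pg and 0.96, 0.00 and 0.39 at 0.1 pg. Bulk was the highest array and 10 pg after 2 rounds the next, and all others were lower. The difference was -3.95 (SE 0.640, adjusted p = 0.00831 in limma), and it passed in all 15 fits with an amplified array left out. The other Gnb1 probe sets did not follow: 1425908_at gave 0.25 and 1417432_a_at -0.43, neither past the threshold.

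Gng2 fell against bulk by 1428157_at, a different probe set from the one that fell with input. It was 2.86 in bulk, and after 2 rounds -0.30 at 10 pg, -1.87, -1.03 and -1.55 at 1 pg and -3.43, 0.21 and -1.35 at 0.1 pg. After 4 rounds it was -0.19, -0.74 and -0.71 at 10 pg, -2.23, -1.63 and -1.51 at 1 pg and -3.23, -1.05 and -1.47 at 0.1 pg. Bulk exceeded all amplified arrays. The 4 probe sets of Gng2 differed from bulk by -4.12 to -0.54, and only 1428157_at passed. The difference was -4.12 (SE 0.921, adjusted p = 0.0411 in limma), and it passed in 7 of 15 fits with an array left out. It was lost without any 1 of the 3 arrays of 1 pg after 2 rounds, the 3 of 10 pg after 4 rounds, replicate 1 of 1 pg after 4 rounds or replicate 3 of 0.1 pg after 4 rounds, with adjusted p up to 0.0619.

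Of the 7 Gna13 probe sets, whose differences from bulk ran from -2.64 to 1.92, only 1433749_at passed, and it was lower. It was 2.03 in bulk, and after 2 rounds -0.99 at 10 pg, 0.29, -0.70 and -1.18 at 1 pg and -0.72, -0.47 and -0.80 at 0.1 pg. The arrays after 4 rounds gave -0.37, -0.43 and 0.03 at 10 pg, -0.26, -0.66 and -1.02 at 1 pg and -0.91, 0.05 and -0.95 at 0.1 pg. Bulk was the highest array here too. The difference was -2.64 (SE 0.574, adjusted p = 0.0356 in limma). Leaving out replicate 2 of 1 pg after 2 rounds, replicate 1 of 10 pg after 4 rounds or replicate 1 of 0.1 pg after 4 rounds ended the call, with adjusted p up to 0.0575.

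Genes that act on or downstream of the G proteins were counted by the probe set of highest mean, for 65 measured of 69 listed symbols of adenylyl cyclases, protein kinase A subunits, phospholipases C beta, GIRK channels, RGS proteins, receptor kinases and arrestins, chaperones and Arhgef exchange factors. Between 0.1 and 10 pg after 4 rounds, 4 rose and 4 fell (12.3%, against 9.98% of all genes, 4.99% in either direction). Rgs4, which speeds GTP hydrolysis by Gi and Gq alpha subunits, went from 4.92 ± 0.535 at 10 pg to 0.20 ± 1.07 at 0.1 pg (SD, n = 3), a difference of -4.72 (SE 0.597, adjusted p = 0.000258 in limma). Prkar1a, a regulatory subunit of protein kinase A, went from 5.28 ± 0.707 to 1.34 ± 0.713, a difference of -3.93 (adjusted p = 0.000721 in limma). For both the levels in bulk, 4.34 and 5.17, were near those at 10 pg. Rgs3, another GTPase activator, rose from 1.50 ± 1.11 to 4.62 ± 0.338 (adjusted p = 0.00359 in limma). Kcnj3, a subunit of the potassium channel opened by beta and gamma, rose from 0.38 ± 0.784 to 3.58 ± 0.390 with the same adjusted p, where bulk was 0.63. By group, 2 of 9 adenylyl cyclases fell, 2 of 4 GIRK channels rose, 1 of 21 RGS proteins rose and 1 fell, 1 of 6 protein kinase A subunits fell, and 1 of 7 receptor kinases and arrestins rose.

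In the other comparisons the calls were few. From 10 to 1 pg after 4 rounds 1 gene fell (1.54%, against 0.649% of all genes, 0.0715% higher and 0.577% lower): Rgs5, a GTPase activator known from pericytes, at -2.11 (SE 0.449, adjusted p = 0.0385 in limma). From 1 to 0.1 pg, averaged over rounds, 2 genes fell (3.08%, against 1.5%, with 0.22% higher and 1.28% lower), again Rgs4 at -2.53 (adjusted p = 0.00621) and Prkar1a at -2.31 (adjusted p = 0.00897). This comparison shares the 0.1 pg arrays after 4 rounds with the first. From 2 to 4 rounds 4 rose and 1 fell (7.69%, against 4.26%, with 2.36% higher and 1.9% lower). Plcb3, a target of Gq, fell by 1.93 (adjusted p = 0.00411 in limma), Cct4, a subunit of the chaperonin that folds beta subunits, rose by 1.66 (adjusted p = 0.0218), and Adcy6, an adenylyl cyclase, rose by 1.99 (adjusted p = 0.0285). Against bulk 0 of the 65 passed in limma, where 0.824% of all genes did (0.121% higher and 0.704% lower). An unadjusted p under 0.05 was found for 12 of the 65, and for 6032 of all 45037 probe sets. The effect of rounds differed between inputs for 2 (3.08%, against 3.99%, with 3.03% higher and 0.956% lower), Rgs5 at 4.09 (adjusted p = 0.00531) and Adcy4, an adenylyl cyclase, at 3.74 (adjusted p = 0.0485).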

How the data were processed

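The 17 Affymetrix Mouse Genome 430 2.0 arrays cover 7 groups of 1 or 3 arrays, grouped by the input and the rounds that their titles give. The authors deposited log2 values from 1.56 to 15.81, summarized by RMA 2.0 per the labels, 1 column for each array, and 0 columns were without a sample. The array medians were 5.64 to 6.01 and the ranges from the 10th to the 90th percentile 4.22 to 4.99, so the centering and scaling that the methods name were applied here: the median was subtracted on every array, and the result was scaled so that all arrays share the mean range of 4.643. Of 45101 probe sets, 64 controls were left out. Symbols came from the annotation of the array, all 78 members had the RefSeq symbol, and 34945 probe sets had 1 symbol, 932 several and 9160 none. A gene was represented by the probe set whose mean across arrays was highest.

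Means of the 7 groups were fitted to every probe set and contrasted (R 4.3.3, limma 3.58.1, lmFit and eBayes, 16.4 total degrees of freedom), with Benjamini-Hochberg adjustment over 45037 probe sets and a threshold of 0.05. On simulated arrays, 21 of 100 probe sets changed by 2 log2 units were recovered for 0.1 against 10 pg, and 21 for 1 against 10 pg. The number was 68 for 0.1 against 1 pg, 56 for rounds, 6 against bulk and 0 for the difference in the effect of rounds. For a change of 4 log2 units these were 88, 87, 97, 99, 69 and 38. A probe set that did not pass can thus have changed. Tables and plots used python 3.11.15 with numpy 2.4.6, pandas 2.3.3, scipy 1.17.1 and matplotlib 3.10.9. Alternatives were quantile normalization, median centering alone, the values as deposited, leaving out probe sets below the median, a false discovery rate of 0.1%, leaving out single arrays, the replicate number as a block, a fit of the compared groups alone and the methods' t-test. Genes with values in every array were those with a probe set past the threshold (at most 4 a contrast), the 2 highest and 2 lowest in bulk of each class, and at most 4 with probe sets on both sides of the threshold between 0.1 and 10 pg after 4 rounds. At most 3 pathway genes a contrast were named with values. Gnai2, and the genes called only without 1 array or only with the block, were added after their values were seen. The members, marker lists and pathway list were chosen with earlier results of these data known. The labels give no batch.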

Additional observations from a re-analysis of the deposited data

Results flagged for a closer look

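The effect of rounds differed between 0.1 and 1 pg by limma's test of the difference itself for 4 of the genes described. For Gnao1 (1421152_a_at) the change from 2 to 4 rounds was higher at 0.1 than at 1 pg by 4.18 on the log2 scale, and for Gng10 (1450649_at) the difference was -3.67. For the pathway genes Rgs5 and Adcy4 it was 4.09 and 3.74. The Gnao1 probe set 1448031_at gave a difference that did not pass. No cause was tested.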

How the results depend on the processing

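For the called probe sets, no difference reversed its sign under any alternative run. Several alternatives leave the difference itself unchanged by construction and could not reverse it. They are the rate of 0.1%, the filter on the median, the block, the fit of the compared groups alone and the t-test. Only the other scalings and the arrays left out could change it. The probe sets were also picked for their differences in these data, so the unreversed signs add no support. The signs of the other probe sets were not compared. Of the recomputed values for the called probe sets, 204 stayed past the threshold and 90 did not. At a false discovery rate of 0.1%, 0 of the 78 probe sets were called in each comparison. For 0.1 against 10 pg after 4 rounds the count of 7 became 12 on the deposited values, 12 with median centering alone, 18 when only the compared groups were fitted and 3 with the methods' t-test, and 4 to 9 with an array left out, being 4 without replicate 1 of 10 pg or replicate 2 of 0.1 pg. Over all 45037 probe sets the numbers higher and lower went from 1818 and 2173 to 2786 and 2256 on the deposited values. With median centering alone they were 2229 and 2487. For the fits of the compared groups alone, the t-test and the arrays left out, counts over all probe sets are not given here. For 1 against 10 pg the count of 2 became 1 without probe sets below the median, 0 when only the compared groups were fitted, 0 with the methods' t-test, and 0 to 2 with an array left out, being 0 without replicate 2 of 10 pg or replicate 1 of 1 pg. For 0.1 against 1 pg it was 0 to 1. For rounds the count of 3 became 1 when only the compared groups were fitted, 0 with the methods' t-test, and 0 to 6 with an array left out, being 0 without replicate 3 of 1 pg after 2 rounds, replicate 1 of 1 pg after 4 rounds or replicate 2 of 0.1 pg after 4 rounds, and 6 without replicate 3 of 0.1 pg after 2 rounds. Against bulk the count of 3 became 1 without probe sets below the median and 1 to 4 with an array left out, being 1 without replicate 2 of 1 pg after 2 rounds or replicate 1 of 10 pg after 4 rounds. For the difference in the effect of rounds the count of 2 became 1 to 5, being 5 without replicate 3 of 0.1 pg after 2 rounds or replicate 2 of 1 pg after 4 rounds. The cause of these changes was not tested.

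With each gene represented by the median of its probe sets, the median percentile of the 31 genes was 63.7 in bulk, 54.5 at 1 pg after 2 rounds, and 67.0, 64.7 and 57.2 at 10, 1 and 0.1 pg after 4 rounds. Leaving out an array kept it between 60.6 and 61.6 at 1 pg and between 55.1 and 63.7 at 0.1 pg after 2 rounds, and at 68.2, between 66.4 and 67.6, and between 60.7 and 63.5 at 10, 1 and 0.1 pg after 4 rounds. The deposited values moved the median difference of all probe sets from 0.099 to 0.304 against bulk.

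The replicate numbers showed no sign of pairing the arrays: over 30 pairs of arrays with the same number the correlation of their deviations had a median of -0.0081 and exceeded 0.1 in 2, and over 60 pairs with other numbers the median was -0.0073. The deviations are from means of 3 arrays and cancel within each group, which ties these medians together. The check therefore cannot exclude a pairing. With the replicate number as a block, on the 15 arrays that carry one, the counts were 8, 2, 0, 3 and 2 for 0.1 against 10 pg, 1 against 10 pg, 0.1 against 1 pg, rounds and the difference in the effect of rounds. In the same order, the numbers higher and lower among all 45037 probe sets were 1514 and 2025, 25 and 251, 73 and 381, 678 and 636, and 795 and 338. The calls lost were Gnai2 1435652_a_at (adjusted p = 0.0681 in limma) and Gnat1 (adjusted p = 0.0514). Calls gained were Gngt1 1425219_x_at (adjusted p = 0.0356) and Gnaq 1429559_at (adjusted p = 0.0429) for 0.1 against 10 pg, and Gngt1 1425219_x_at for rounds (adjusted p = 0.0424). No paired fit was possible against bulk, which carries no shared number. Ties on the arrays of low input limit what small differences can show.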
